A study of Mus musculus with 9 samples.

Results

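Type I interferon stimulated genes were followed across 9 arrays of interleukin 4 treated mouse macrophages that had received lipocalin 2 (LCN2) or vehicle. The genes were chosen by name: 43 symbols were listed, and each was read from its brightest probe set (by the mean over all arrays), out of 19505 genes with a named probe set. A probe set was found for 41 of the 43 genes, and Ifi205 and Ifi44 were not analysed here. Of these 41 genes, 35 were bright enough to be tested among 10042 genes, that is, their mean over all arrays reached 5.66 on the log2 scale, the median of all probe sets. The 6 dimmer genes were Ifit1, Ifit2, Oas3, Oasl1, Isg15 and Rtp4, and levels of these are given without a test.

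All cells were macrophages grown from the bone marrow of wild-type C57BL/6 mice over 7 days of culture with 10% serum and the growth factor M-CSF (macrophage colony-stimulating factor), then given 20 ng/ml interleukin 4 (IL-4) for 24 h. Per the labels the M-CSF concentration was 10 ng/ml in the growth protocol and 20 ng/ml in the series text. The first of the 3 groups received 150 ng/ml recombinant mouse LCN2, a secreted protein that binds bacterial iron carriers, from day 0. The second received LCN2 from day 7 onwards, when IL-4 was added, at a dose that the labels do not state, and the third received vehicle. Each group held 3 arrays, and every group had the IL-4 treatment, so no array shows macrophages without it. The array titles number the arrays of each group 1, 2 and 3. Nothing in the labels says that these came from separate mice or cultures, so a p-value here reflects no more than the spread between arrays, which could be technical.

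Type I interferons are secreted by cells that sense viral or self nucleic acids, and they signal through the receptor pair IFNAR1 and IFNAR2 and the kinases TYK2 and JAK1. The receptor activates STAT2, which together with IRF9 is part of the complex ISGF3. ISGF3 binds the interferon-stimulated response element (ISRE) in the promoters of many interferon-induced genes, and macrophages keep a low level of this signalling without infection. Many of the encoded proteins block the copying of viruses, and IRF7 feeds back to raise interferon production.

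The core of the ISRE was searched as GAAANNGAAA or, on the other strand, TTTCNNTTTC, in promoter windows of 300 bases, from 250 bases before to 50 bases after the gene start (RefSeq, mouse assembly GRCm38.p6). Of the 43 listed genes, 32 had a window, and 16 of these 32 (50%) held the motif, against 1079 of 27025 genes of the whole table (3.99%). The 6 windows below belong to named genes with an ISRE match near the start, and show bases 170 before to 30 after the start, on the strand of the gene, with matches in capitals. Overlapping matches share their capitals.
Ddx58, chr4:40239796-40239995, minus strand: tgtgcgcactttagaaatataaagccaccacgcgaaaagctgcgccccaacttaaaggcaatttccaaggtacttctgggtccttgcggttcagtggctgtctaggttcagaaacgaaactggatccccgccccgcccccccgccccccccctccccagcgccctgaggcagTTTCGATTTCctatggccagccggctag
Trim21, chr7:102565453-102565652, minus strand: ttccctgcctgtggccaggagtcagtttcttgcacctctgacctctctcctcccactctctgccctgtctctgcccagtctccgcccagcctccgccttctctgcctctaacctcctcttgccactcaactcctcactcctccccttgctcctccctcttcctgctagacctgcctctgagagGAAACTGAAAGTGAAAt
Oas1a, chr5:120907496-120907695, minus strand: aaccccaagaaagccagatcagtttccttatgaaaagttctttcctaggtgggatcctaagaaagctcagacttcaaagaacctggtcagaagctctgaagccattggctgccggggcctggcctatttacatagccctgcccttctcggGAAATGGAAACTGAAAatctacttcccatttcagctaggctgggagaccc
Isg15, chr4:156200789-156200988, minus strand: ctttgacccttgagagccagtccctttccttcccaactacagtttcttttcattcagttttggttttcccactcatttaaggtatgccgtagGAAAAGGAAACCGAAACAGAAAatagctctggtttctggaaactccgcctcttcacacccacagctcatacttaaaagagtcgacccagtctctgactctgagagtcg
Rsad2, chr12:26456423-26456622, minus strand: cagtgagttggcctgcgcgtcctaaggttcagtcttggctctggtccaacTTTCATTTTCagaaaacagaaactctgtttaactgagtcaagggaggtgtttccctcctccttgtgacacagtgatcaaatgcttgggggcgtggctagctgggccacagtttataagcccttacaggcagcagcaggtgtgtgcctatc
Ifit3, chr19:34583359-34583558, plus strand: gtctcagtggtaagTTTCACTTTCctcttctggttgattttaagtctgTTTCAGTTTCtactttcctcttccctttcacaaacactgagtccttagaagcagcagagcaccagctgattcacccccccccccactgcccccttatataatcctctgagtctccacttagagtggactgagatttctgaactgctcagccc
The Isg15 window holds 3 overlapping matches, those of Trim21 and Oas1a hold 2 overlapping matches each, and that of Ifit3 holds 2 separate ones. Ddx58 and Rsad2 have 1 match each, in Ddx58 just after the start and in Rsad2 at position -120 relative to it. A match is a description of these letters and does not show that a factor binds there.

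The cells carried the markers of the labelled cell type. The mean of the 7 macrophage markers with a probe set lay between 10.19 and 10.52 on the log2 scale on every array. All 7 were bright enough to test, and group means of Adgre1, Csf1r and Lyz2 lay between 11.7 and 12.6. The mean of the 4 genes of the IL-4 response (Arg1, Retnla, Chil3 and Mrc1) lay between 11.5 and 12.1 on every array. Plasmacytoid dendritic cells are strong producers of interferon. Of their 8 markers with a probe set, 6 were below the brightness minimum, and the mean of the 8 lay at 5.57 to 5.74 with LCN2 from day 0, 5.47 to 5.67 with LCN2 from day 7 and 5.58 to 5.66 with vehicle. Siglech, which defines these cells, averaged 4.35 with LCN2 from day 0, 4.15 with LCN2 from day 7 and 4.40 with vehicle. Of the markers of T and B cells, 5 of 6 were below the minimum. For neutrophils this was 1 of 8 genes and for monocytes 1 of 6, so brightness alone did not set macrophages apart. The mean lay at 5.89 to 7.77 for the 8 neutrophil genes and at 7.02 to 7.90 for the 6 monocyte genes.

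A pair of patterns ran through the interferon genes. Most member values lay lower with LCN2 than with vehicle: 35 of 35 for day 0 and 30 of 35 for day 7. Of all genes, 54.8% lay lower for day 0 and 49.1% for day 7. None of the members passed the threshold, and the day 7 arrays numbered 3 did not share the direction. A larger difference ran by title number: arrays numbered 1 were lower for 17 of the 35 members (48.6%), against 22.1% of all genes. The first principal component of all genes held 62.5% of the variance, and which arrays it sets apart is not reported here. Because samples are bulk RNA, fewer cells of a type and less RNA per cell cannot be told apart.

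**Figure D1:**
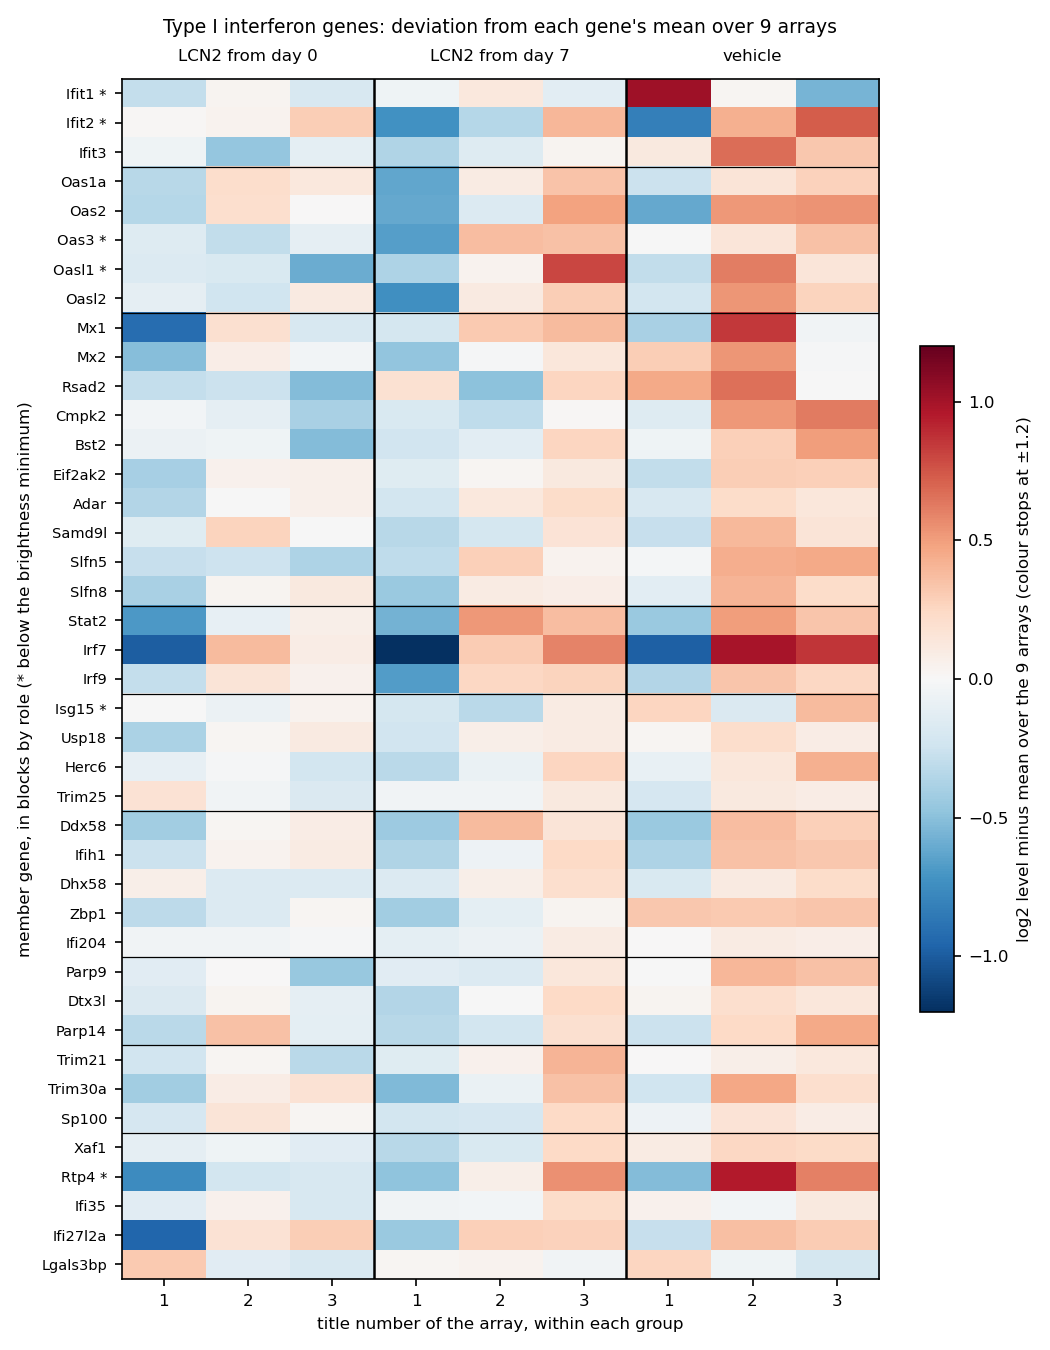
Log2 level of each of the 41 genes on each of the 9 arrays, minus the mean of that gene over the arrays, with groups from left to right and genes in blocks by role. The columns numbered 1 are blue for Irf7, Stat2, Oas2 and Ddx58 in every group, while the vehicle columns numbered 2 and 3 are red for most genes.

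The first comparison asked how macrophages grown with LCN2 from day 0 differ from vehicle cells. No gene passed an adjusted p of 0.05 in limma, so 0 of 35 members were called, against 0% of the 10042 genes. With the title number as a block the counts were also 0, and the lowest adjusted p of a member was 0.678, against 0.999 without the block. All 35 tested members had a difference below 0 in the values as deposited (33 after quantile normalization), against 54.8% of all genes, and their median difference was -0.20 on the log2 scale, against -0.015 for all genes. At an unadjusted p under 0.05, 7 members (20%) lay lower, against 0.996% of all genes, and 0 lay higher, against 0.418%. With the block these were 12 members (34.3%), against 3.31% of all genes. In both directions together, 142 of the 10042 genes had an unadjusted p under 0.05 without the block and 497 with it. With no difference in any gene, 502 would be expected, and the total with the block did not exceed that number. The fit without the block keeps the difference by title number in its spread, which lowers its counts. Its 142 is therefore not set against 502.

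The block count rested partly on single arrays. Without vehicle array 2 it was 2 members (2.17% of all genes) and without LCN2 from day 0 array 2 it was 7 (5.24% of all genes). Without the block, leaving out vehicle array 2 or LCN2 from day 0 array 3 brought the 7 members to 4 (0.787% and 0.657% of all genes). Without all arrays numbered 1, 35 of 35 members lay below 0 and 10 had an unadjusted p under 0.05 in the fit with the block (2.13% of all genes). With 1 array left out the count below 0 fell as low as 29, without LCN2 from day 0 array 3 in the fit with the block. Without LCN2 from day 0 array 1 and without the block it was 30.

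Ifit3, which binds viral RNA together with IFIT1, had log2 levels of 6.08, 5.67 and 6.01 with LCN2 from day 0, 5.77, 5.98 and 6.16 with LCN2 from day 7, and 6.25, 6.81 and 6.46 with vehicle, in the order of the title numbers. All 6 LCN2 arrays lay below all 3 vehicle arrays. The difference from vehicle was -0.58 ± 0.18 (SE; 0.667-fold) for day 0 and -0.54 ± 0.18 (0.689-fold) for day 7. Without vehicle array 2, in the fit with the block, these were -0.37 for day 0 and -0.33 for day 7. Its near-copy Ifit3b was dimmer, at means of 5.31 with LCN2 from day 0, 5.18 with LCN2 from day 7 and 5.59 with vehicle, and whether the probes separate the copies was not tested.

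Zbp1, a sensor of left-handed nucleic acid that can start cell death, had 5.73, 5.88 and 6.07 with LCN2 from day 0, 5.63, 5.93 and 6.08 with LCN2 from day 7, and 6.37, 6.36 and 6.37 with vehicle. The 3 vehicle arrays were almost equal, and the 6 LCN2 arrays all lay below them. The differences were -0.47 ± 0.14 for day 0 and -0.49 ± 0.14 for day 7 (SE), which are 0.720-fold and 0.711-fold. Within title numbers 1, 2 and 3 they were -0.64, -0.47 and -0.31 for day 0, and -0.75, -0.43 and -0.30 for day 7. Ifit3 and Zbp1 were the only members with all LCN2 arrays below all vehicle arrays, as were 30 of 10042 genes (0.299%).

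Among the antiviral effectors, Rsad2, or viperin, makes a chain-ending nucleotide, and Cmpk2 lies beside it in the genome and encodes a mitochondrial nucleotide kinase. Rsad2 had 6.04, 6.07 and 5.80 with LCN2 from day 0, 6.51, 5.83 and 6.58 with LCN2 from day 7, and 6.78, 6.98 and 6.32 with vehicle. The day 0 arrays all lay below the vehicle arrays, while day 7 arrays overlapped both. The difference from vehicle was -0.72 ± 0.23 (SE; 0.606-fold) for day 0, the largest among the 35 members, and -0.39 for day 7.

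Cmpk2 had 6.75, 6.67 and 6.39 with LCN2 from day 0, 6.59, 6.47 and 6.79 with LCN2 from day 7, and 6.62, 7.30 and 7.40 with vehicle. Vehicle arrays 2 and 3 lay above every LCN2 array and vehicle array 1 lay among them. Its differences from vehicle were -0.51 for day 0 and -0.49 for day 7 (SE 0.21 each). Leaving out 1 array moved the day 7 value to between -0.76 (without vehicle array 1, with the block) and -0.33.

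Slfn5, a schlafen protein of the nucleus, had 7.61, 7.64 and 7.52 with LCN2 from day 0, 7.58, 8.17 and 7.93 with LCN2 from day 7, and 7.86, 8.32 and 8.34 with vehicle. The day 0 arrays lay close together and below every vehicle array, and the day 7 arrays spread over both. The difference was -0.58 ± 0.18 (SE; 0.131 with the block) for day 0 and -0.28 for day 7.

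Of the other effectors, the interferon-induced GTPases Mx1 and Mx2 differed by -0.44 and -0.42 between LCN2 from day 0 and vehicle. The Mx2 mean with LCN2 from day 0 lay just below the brightness minimum. Bst2, or tetherin, which holds virus particles at the cell surface, had 9.05, 9.06 and 8.60 with LCN2 from day 0 and 9.07, 9.41 and 9.62 with vehicle, and the groups did not overlap. The difference was -0.46. Differences of Slfn8, the RNA-activated kinase Eif2ak2, the RNA-editing enzyme Adar and Samd9l lay between -0.25 and -0.05. Over the 10 effectors the median difference was -0.43 for day 0, and 10 of 10 lay below 0, against 54.8% of all genes.

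**Figure D2:**
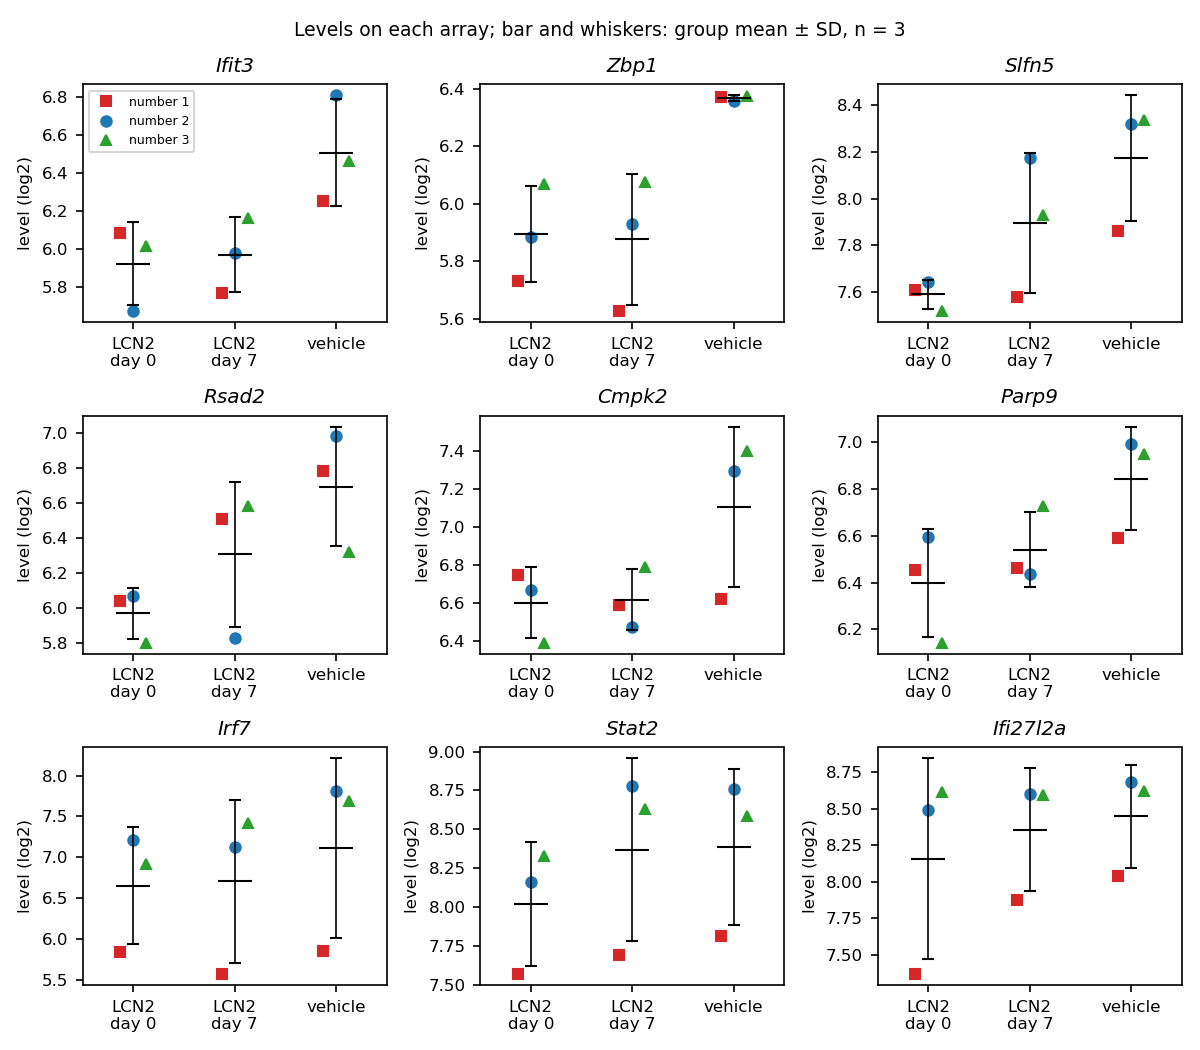
Log2 level of 9 members on each array, by group, with a symbol per title number and a bar at the group mean with whiskers of 1 SD (n = 3). Ifit3 and Zbp1 show both LCN2 groups below vehicle, while Irf7, Stat2 and Ifi27l2a show the arrays numbered 1 well below the others in every group.

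Parp9 and Dtx3l encode partners that modify histones and other proteins after DNA damage or infection. Parp9 had 6.45, 6.59 and 6.14 with LCN2 from day 0, 6.46, 6.43 and 6.73 with LCN2 from day 7, and 6.59, 6.99 and 6.95 with vehicle. Vehicle array 1 equalled 1 day 0 array to 2 decimals, and the groups otherwise stood apart for day 0. The difference was -0.45 ± 0.16 (SE) for day 0 and -0.30 for day 7. In the fit with the block these became -0.25 for day 0 without LCN2 from day 0 array 3 and -0.16 for day 7 without LCN2 from day 7 array 2. Dtx3l differed by -0.20 for day 0 and -0.17 for day 7, and Parp14 by -0.18 for day 0 and -0.27 for day 7.

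Xaf1, which promotes cell death, had 6.71, 6.76 and 6.67 with LCN2 from day 0, 6.48, 6.63 and 7.05 with LCN2 from day 7, and 6.91, 7.06 and 7.04 with vehicle. The day 0 arrays lay below the vehicle arrays, and 1 day 7 array lay among the vehicle values. Its differences from vehicle were -0.29 for day 0 and -0.28 for day 7 (SE 0.15 each), and the day 7 value was -0.16 without LCN2 from day 7 array 1.

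The transcription factors of the response stood at intermediate levels. Their differences for LCN2 from day 0 against vehicle were -0.46 for Irf7, -0.37 for Stat2 and -0.10 for Irf9, with an SE of 0.64 for Irf7, 0.34 for Stat2 and 0.28 for Irf9. With the block the SE was 0.17, 0.11 and 0.12, and the unadjusted p was under 0.05 for Irf7 and Stat2, while the lowest adjusted p of the 3 was 0.960. For LCN2 from day 7 the differences were -0.41 for Irf7, -0.02 for Stat2 and -0.13 for Irf9, and with the block Irf7 had an unadjusted p under 0.05. The 3 tested OAS genes, whose enzymes make the activator of RNase L, differed by -0.06 (Oas1a), -0.19 (Oas2) and -0.27 (Oasl2) for day 0.

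Sensors of viral RNA showed small values: Ddx58 (RIG-I), Ifih1 (MDA5) and Dhx58 (LGP2) differed by -0.17, -0.14 and -0.14 for day 0, and by -0.04, -0.16 and -0.01 for day 7. Of the genes that handle ISG15, the deconjugating enzyme Usp18 differed by -0.19 and the ligase Herc6 by -0.27 for day 0. Trim25, a ligase of the RIG-I pathway, differed by -0.01.

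Counted without a model, 7 of 35 members (20%) had all LCN2 from day 0 arrays below all vehicle arrays, against 3.44% of all genes: Ifit3, Rsad2, Bst2, Slfn5, Zbp1, Ifi204 and Xaf1. Within the title numbers, 21 members (60%) lay lower with LCN2 from day 0 in all 3 pairs of arrays, against 15.4% of all genes. The members' median difference was -0.14, -0.30 and -0.25 for numbers 1, 2 and 3, with 25, 32 and 33 of 35 members below 0. Of all genes, 48.0%, 46.8% and 61.1% lay below 0 within these numbers.

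For LCN2 from day 7 against vehicle, which shares its vehicle arrays with the comparison above, 0 of 35 members had an adjusted p under 0.05, against 0% of all genes, with the block or without it. Of the 35 members 30 lay below 0 (27 after centring each array on its median, 31 after quantile normalization), against 49.1% of all genes, and the median difference was -0.17, against 0.003. At an unadjusted p under 0.05, 3 members (8.57%; Ifit3, Cmpk2 and Zbp1) lay lower, against 0.408% of all genes, and with the block 6 (17.1%), against 1.27%. The 3 that the block added were Mx2, Slfn8 and Irf7, and Mx2 stood clear of the brightness minimum only with vehicle. In both directions together, 70 genes had an unadjusted p under 0.05 without the block and 259 with it. The count with the block was below the 502 expected. Only Ifit3 and Zbp1 had groups that did not overlap (5.71%), against 1.67% of all genes.

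These day 7 counts moved with single arrays. With the block, the 6 members became 1 without vehicle array 2 (0.508% of all genes) or without LCN2 from day 7 array 1 (1.16% of all genes), and 11 without LCN2 from day 7 array 3 (3.00% of all genes). Without the block, the 3 members became 1 without vehicle array 2 (0.229% of all genes) or LCN2 from day 7 array 1 (0.827%), and 5 without vehicle array 1 (0.478%). Without LCN2 from day 7 array 1 and without the block, 20 of 35 members lay below 0, with a median of -0.013. Within title numbers 1, 2 and 3 the members' medians were -0.17, -0.30 and 0.009, and 28, 32 and 16 members lay below 0. Of all genes, 47.8%, 52.8% and 47.5% lay below 0 within these numbers. The pair of arrays numbered 3 thus did not show the direction of the other pairs. In all 3 pairs, 11 members (31.4%) were lower, against 10.3% of all genes.

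**Figure D3:**
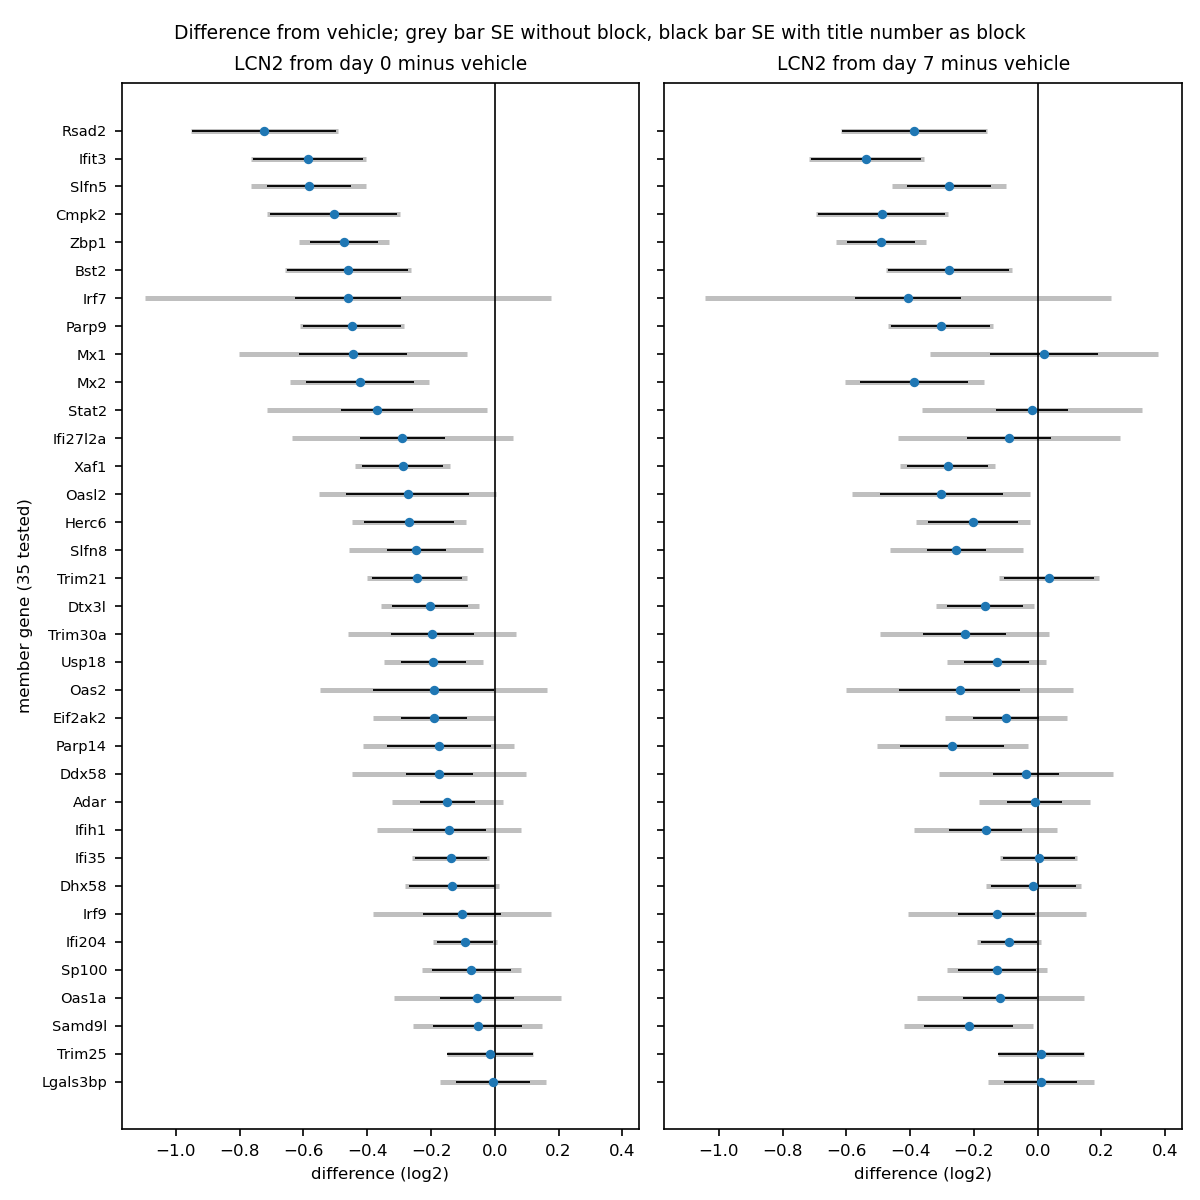
Difference from vehicle on the log2 scale for each of the 35 tested members, with LCN2 from day 0 at left and LCN2 from day 7 at right, grey bars for the SE without the block and black bars for the SE with the title number as block. In the values as deposited all 35 points lie below 0 at left and 30 of 35 at right, and Rsad2, Ifit3 and Slfn5 lie furthest left in the day 0 panel.

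Both LCN2 groups were also set against vehicle as 1 mean. With an adjusted p under 0.05, 0 of 35 members were called, against 0% of all genes. At an unadjusted p under 0.05, 6 members (17.1%) lay lower, against 0.388% of all genes: Ifit3, Rsad2, Cmpk2, Slfn5, Zbp1 and Parp9. With the block there were 10 (28.6%), against 1.70%. Without vehicle array 2 these counts were 2 (0.418% of all genes) and, with the block, 3 (1.06%). With all arrays and in both directions together, 68 genes had an unadjusted p under 0.05 without the block and 312 with it. For the fit with the block 502 were expected.

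Starting LCN2 on day 0 rather than day 7 was compared directly. Of the 35 members 0 had an adjusted p under 0.05, against 0% of all genes, and 24 lay below 0 (30 after centring), against 55.5%, with a median of -0.037. At an unadjusted p under 0.05, 0 members were lower, against 1.07% of all genes. With the block there were 3 (8.57%), Mx1, Slfn5 and Stat2, against 3.42%, and the lowest adjusted p was 0.888. Without LCN2 from day 7 array 3 these became 1 (2.69% of all genes). Mx1, Slfn5 and Stat2 differed by -0.47, -0.30 and -0.35 on the log2 scale, and Slfn5 by -0.16 without LCN2 from day 7 array 2.

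Trim21, a ligase that binds antibodies inside cells, had the smallest unadjusted p without the block, with 6.05, 6.31 and 5.96 with LCN2 from day 0 and 6.14, 6.33 and 6.69 with LCN2 from day 7. The groups overlapped, and the difference was -0.28. Leaving out 1 array moved it to between -0.40 (without LCN2 from day 7 array 1) and -0.11 (without LCN2 from day 7 array 3, with the block). Most of the distance between the groups came from title number 3: there 32 of 35 members lay lower with LCN2 from day 0 (63.2% of all genes), against 11 and 15 members for numbers 1 and 2 (50.6% and 46.0% of all genes). Only Mx1, Adar, Stat2 and Trim21 (11.4%) were lower in all 3 pairs, against 12.9% of all genes.

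The second pattern ran by title number. Arrays numbered 1 were lower than the mean of numbers 2 and 3 for 17 of 35 members (48.6%) at an adjusted p under 0.05 in limma with group and number as factors, against 22.1% of all genes, and higher for 0 members, against 11.0% of all genes. The members' median difference was -0.30, against -0.064 for all genes, and 33 of 35 lay below 0, against 59.1% of all genes. In 14 members (40%) the 3 arrays numbered 1 all lay below the other 6, against 23.6% of all genes. Numbers 2 and 3 differed in 0 members and 0% of all genes at an adjusted p under 0.05. At an unadjusted p under 0.05, 1 member (2.86%), Mx1, was higher on number 2, against 1.15% of all genes.

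All 3 transcription factors were lower on the arrays numbered 1. Irf7, the factor that amplifies interferon production, had 5.84, 7.21 and 6.91 with LCN2 from day 0, 5.57, 7.13 and 7.42 with LCN2 from day 7, and 5.85, 7.81 and 7.68 with vehicle. The first value of each group lay more than 1 log2 unit below the others, and the difference was -1.61 ± 0.14 (SE), with an adjusted p of 0.000231. This is 0.328-fold, while its difference between LCN2 from day 0 and vehicle was -0.46.

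Stat2, part of ISGF3, had 7.57, 8.16 and 8.33 with LCN2 from day 0, 7.69, 8.78 and 8.63 with LCN2 from day 7, and 7.81, 8.76 and 8.59 with vehicle. Its difference by number was -0.85 ± 0.098 (SE; adjusted p 0.000679). Irf9, its partner, had 7.05, 7.50 and 7.40 with LCN2 from day 0, 6.67, 7.59 and 7.61 with LCN2 from day 7, and 6.99, 7.68 and 7.59 with vehicle, and differed by -0.66 (adjusted p 0.00266). In both genes the arrays numbered 1 lay below the other 6.

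Among effectors and sensors, Ifi27l2a, a small membrane protein, had 7.37, 8.49 and 8.62 with LCN2 from day 0, 7.87, 8.60 and 8.60 with LCN2 from day 7, and 8.04, 8.68 and 8.62 with vehicle. It differed by -0.84 ± 0.11 (SE; adjusted p 0.00134). Ddx58 had 6.20, 6.64 and 6.71 with LCN2 from day 0, 6.19, 7.00 and 6.78 with LCN2 from day 7, and 6.18, 6.99 and 6.91 with vehicle. The 3 arrays numbered 1 lay at 6.18 to 6.20, and the difference was -0.65 (adjusted p 0.00149). Oas1a had 7.25, 7.80 and 7.71 with LCN2 from day 0, 6.96, 7.68 and 7.93 with LCN2 from day 7, and 7.32, 7.74 and 7.86 with vehicle, and differed by -0.61 (adjusted p 0.00305).

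By role, arrays numbered 1 were lower in 3 of 3 tested OAS genes, 5 of 10 effectors (Mx1, Eif2ak2, Adar, Samd9l and Slfn8), 3 of 3 transcription factors and 2 of 5 nucleic acid sensors (Ddx58 and Ifih1). They were also lower in Usp18, Parp14, Trim30a and Ifi27l2a. Of all genes, 22.1% were lower. By number, Rsad2 differed by 0.18 and Ifit3 by -0.15, and neither was called. The 17 genes had a median LCN2 difference of -0.19 for day 0 and -0.13 for day 7, and the other 18 had -0.28 for day 0 and -0.24 for day 7. With the block, 4 of the 17 had an unadjusted p under 0.05 for day 0 and 2 for day 7, and of the other 18, 8 for day 0 and 4 for day 7. All of these were lower with LCN2, as were 3.31% of all genes for day 0 and 1.27% for day 7. This split was made after the values were seen. The ISRE motif was found in 7 of the 12 genes of the 17 that had a window, and in 5 of 13 of the others.

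The number of members called by title number moved between 12 without vehicle array 1, with 11.7% of all genes lower, and 18 without LCN2 from day 0 array 3, with 24.4% of all genes lower. With array weights it was 20. With quantile normalization 14 members were lower and 1, Lgals3bp, was higher. That scaling also moved the split of calls over all genes, of which 53.9% were lower, against 66.7% as deposited and 73.2% after centring each array on its median.

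**Figure D4:**
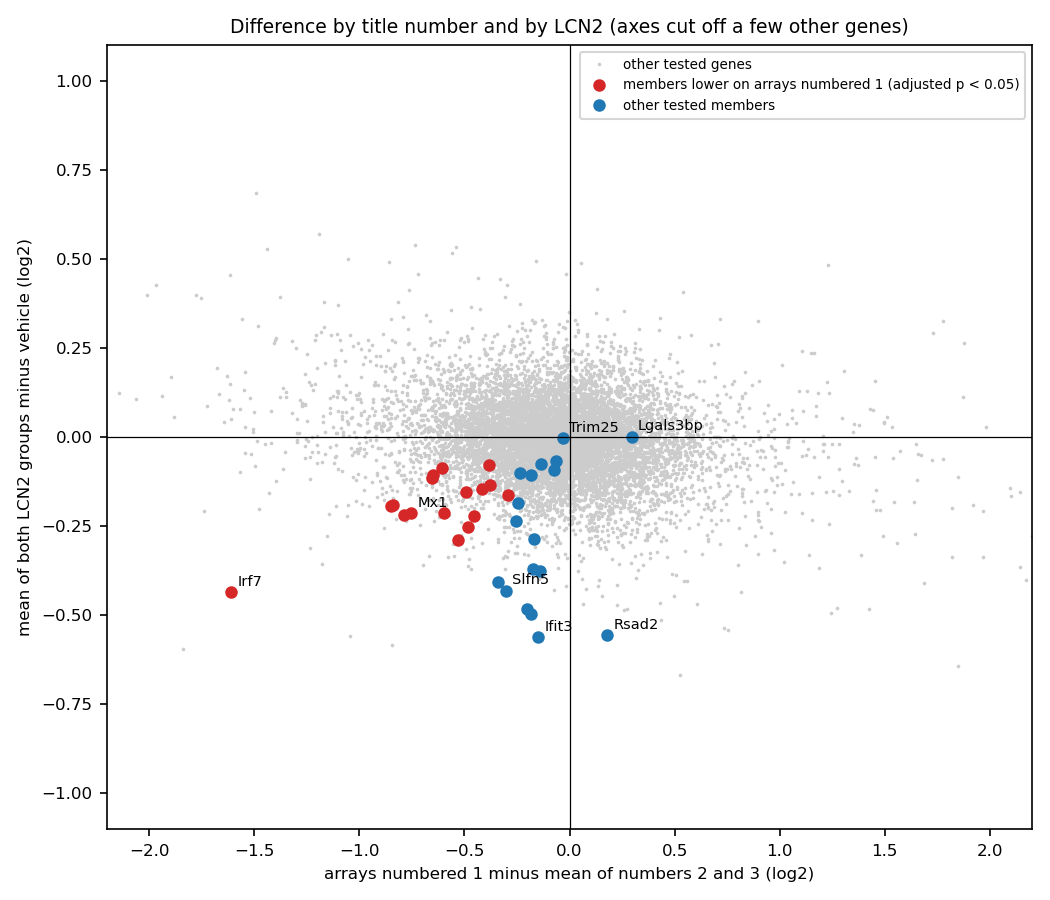
Difference of arrays numbered 1 from the mean of numbers 2 and 3 (horizontal, log2) against the mean of both LCN2 groups minus vehicle (vertical, log2), for 35 members and the other tested genes in grey. Among the members Irf7 lies furthest left at -1.61, while Ifit3 and Rsad2 lie lowest, at -0.56 each on the vertical axis, with -0.15 and 0.18 on the horizontal axis.

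Markers of other cells moved with the title number. Of 7 tested neutrophil genes, 6 were lower on the arrays numbered 1 (median difference -1.44), and the mean over 8 such genes was 6.35, 7.77 and 7.76 with LCN2 from day 0, 6.68, 7.37 and 7.58 with LCN2 from day 7, and 5.89, 7.37 and 7.30 with vehicle. Of 5 monocyte genes, 4 were lower and 1 was higher, with values from -2.39 in Ccr2 to 1.82 in Fn1. Of the 2 tested markers of plasmacytoid dendritic cells, Cox6a2 was lower (-0.93, adjusted p 0.000674) and Tcf4 had -0.21. Of 7 macrophage genes, Fcgr1 was lower and Mertk, Lyz2 and Cd14 were higher, and of the 4 genes of the IL-4 response, Arg1 was lower and Retnla and Chil3 were higher. Of 17 cell cycle genes, 15 were lower, with a median of -1.09. Over all genes, 22.1% were lower and 11.0% higher on these arrays. All 7 neutrophil genes lay above 0 in both LCN2 comparisons with vehicle (median 0.45 each), opposite in direction to the interferon genes. Of all 10042 genes, 4539 lay above 0 for day 0 and 5114 for day 7, and 0 neutrophil genes were called. Within title number 2 the mean over the 8 neutrophil genes differed by -0.003 for day 7. Of the 17 cell cycle genes, 11 lay above 0 for day 0 and 15 for day 7. The part of other cell types in the differences of the interferon genes was not tested.

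Each member's variation over the 9 arrays was divided into title number, group and the rest. For the median member the title number took 51.4% of the sum of squares, the group 15.0% and the rest 29.9%, against 48.6%, 10.6% and 31.5% for the median of all genes. The number exceeded the group in 23 of 35 members (65.7%), against 76.8% of all genes. The group took 74.3% in Zbp1, 65.5% in Ifit3, 60.4% in Slfn5, 56.0% in Rsad2, 54.8% in Parp9 and 50.8% in Cmpk2. The number took 89.2% in Ddx58, 89.1% in Irf7, 87.7% in Oas1a and 87.2% in Irf9. In Trim25 neither took a large share, and the rest was 97.9%.

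**Figure D5:**
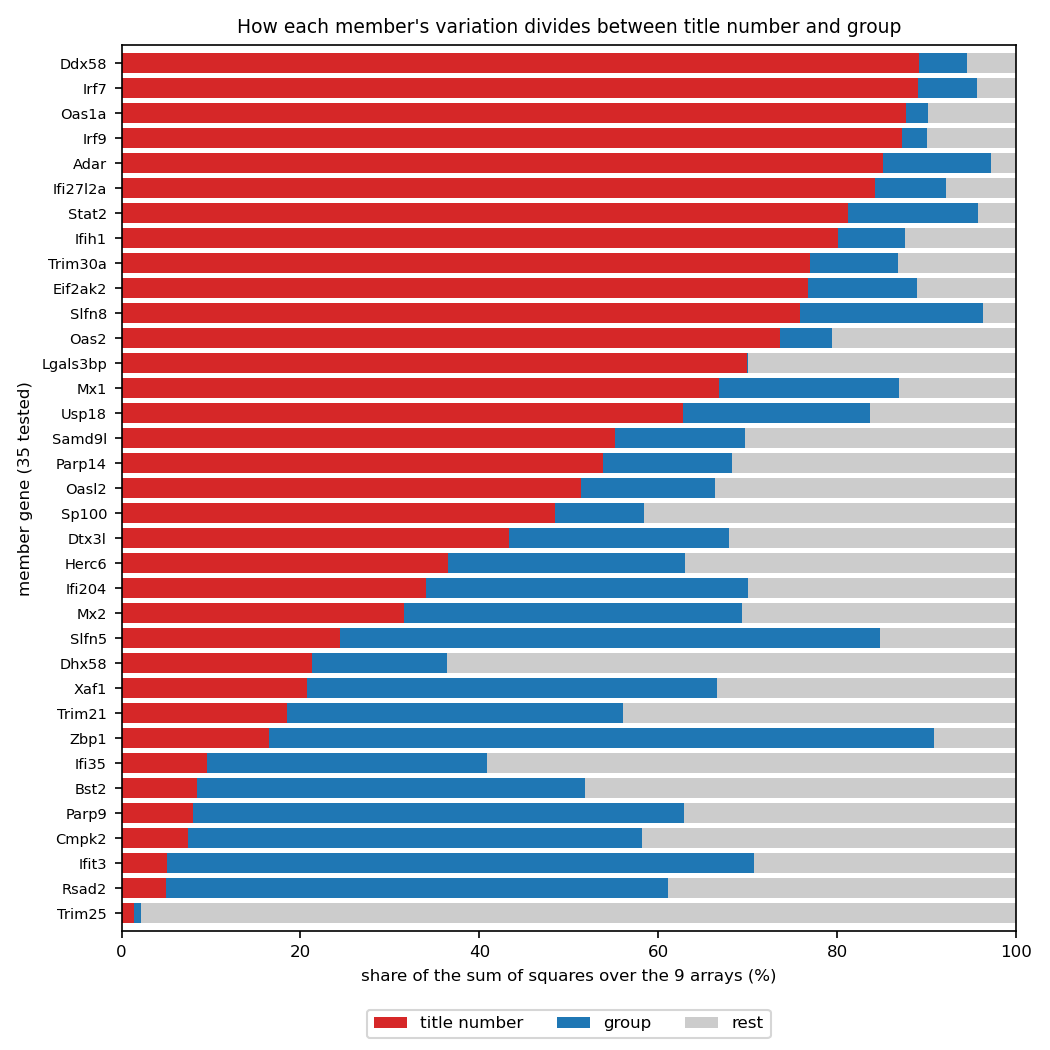
Share of each member's sum of squares over the 9 arrays that goes with title number (red), group (blue) and the rest (grey), in percent, for 35 members ordered by the share of the number. Ddx58 and Irf7 are nearly all red, while Zbp1 and Ifit3 are mostly blue.

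The members varied together. Over the 595 pairs of tested members the median Pearson correlation across the 9 arrays was 0.62, with a range of -0.86 to 0.98, and 68.2% of pairs exceeded 0.5, against a median of 0.036 and 20.8% for pairs of all genes. All pairs of genes share these 9 arrays and their difference by title number. Over the 6 arrays numbered 2 and 3 the median was 0.61, and after taking out group and number it was 0.33, against 0.040 for all genes. The closest pairs over 9 arrays were Oas2 with Ifih1 (0.98) and Stat2 with Ddx58, Adar with Stat2 and Ifi204 with Xaf1 (0.97 each). Irf7 with Irf9 followed (0.96). After taking out group and number, Oas2 with Ifih1 had 0.93, Ifi204 with Xaf1 0.94 and Stat2 with Ddx58 0.79. Irf7 with Irf9 fell to 0.66 and Adar with Stat2 to 0.34.

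Lgals3bp, a secreted glycoprotein, had a different pattern. It had 10.70, 10.26 and 10.20 with LCN2 from day 0, 10.41, 10.43 and 10.35 with LCN2 from day 7, and 10.65, 10.34 and 10.18 with vehicle. Its correlation with Eif2ak2 was -0.86, the lowest of all pairs, and the group took 0.124% of its variation. On the arrays numbered 1 it differed by 0.30, with an adjusted p of 0.0522.

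The levels of the members ranged widely, and levels of different probe sets are not compared as amounts. Ifi204, a DNA sensor of a family of close copies, stood highest, at 10.79, 10.79 and 10.81 with LCN2 from day 0, 10.71, 10.76 and 10.92 with LCN2 from day 7, and 10.83, 10.93 and 10.91 with vehicle. Sp100, of the nuclear bodies, had 9.76, 10.11 and 9.97 with LCN2 from day 0, 9.73, 9.75 and 10.19 with LCN2 from day 7, and 9.90, 10.12 and 10.05 with vehicle. Trim25 had 9.64, 9.42 and 9.29 with LCN2 from day 0, 9.43, 9.42 and 9.59 with LCN2 from day 7, and 9.27, 9.58 and 9.55 with vehicle. In none of these 3 genes did the LCN2 groups differ from vehicle by more than 0.13.

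Isg15, Ifit2 and Oasl1 were below the brightness minimum on every array. Isg15, the ubiquitin-like modifier, had 4.98, 4.91 and 5.03 with LCN2 from day 0, 4.77, 4.66 and 5.08 with LCN2 from day 7, and 5.23, 4.81 and 5.36 with vehicle. Ifit2 had 4.42, 4.45 and 4.70 with LCN2 from day 0, 3.68, 4.06 and 4.81 with LCN2 from day 7, and 3.59, 4.83 and 5.13 with vehicle. Oasl1 had 4.57, 4.55 and 4.14 with LCN2 from day 0, 4.37, 4.78 and 5.54 with LCN2 from day 7, and 4.44, 5.35 and 4.88 with vehicle. In all 3 genes the groups overlapped, and no difference was tested. Ifit1 averaged 4.86 with LCN2 from day 0, 4.99 with LCN2 from day 7 and 5.17 with vehicle, and Rtp4 averaged 4.81 with LCN2 from day 0, 5.24 with LCN2 from day 7 and 5.54 with vehicle. Mx2, just above the minimum, averaged 5.63 with LCN2 from day 0, 5.67 with LCN2 from day 7 and 6.05 with vehicle. Oas3, just below it, averaged 5.35 with LCN2 from day 0, 5.56 with LCN2 from day 7 and 5.70 with vehicle.

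Genes upstream of the response were read from lists of the pathway. Of 16 ligand genes with a probe set, 13 were below the minimum, among them Ifnb1, the interferon beta gene, which averaged 4.85 ± 0.09 with LCN2 from day 0, 4.75 ± 0.12 with LCN2 from day 7 and 4.71 ± 0.05 with vehicle (SD, n = 3 each). The tested Ifna1, Ifna5 and Ifna7 belong to a family of near-identical genes. Their differences from vehicle lay between 0.06 and 0.20 for day 0 and between -0.18 and 0.29 for day 7, and 0 were called. On the arrays numbered 1, 1 of the 3 was higher (0.40, adjusted p 0.0466 in limma), against 11.0% of all genes, and 2 lay below 0. The receptor genes were well expressed: Ifnar1 averaged 9.18 ± 0.07 with LCN2 from day 0, 9.07 ± 0.18 with LCN2 from day 7 and 9.13 ± 0.08 with vehicle (SD). Ifnar2 averaged 10.95 ± 0.05 with LCN2 from day 0, 10.91 ± 0.08 with LCN2 from day 7 and 10.95 ± 0.11 with vehicle (SD). Differences of Ifnar1, Ifnar2, Jak1 and Tyk2 from vehicle lay between -0.06 and 0.05 for both days, and 0 of the 4 were called by title number.

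Inhibitors of the receptor pathway lay below 0 in 7 of 7 tested genes for LCN2 from day 0 and in 4 of 7 for day 7, and 0 were called. The shares of all genes below 0 were 54.8% for day 0 and 49.1% for day 7, and 0% were called. By title number Ptpn6, a phosphatase, was lower (-0.43), while the cytokine signalling suppressors Socs1 and Cish were higher (0.53 and 0.61). Of 14 tested genes that lead to interferon production, 11 and 12 lay below 0 for day 0 and day 7, and 0 were called. On the arrays numbered 1, 3 of these were lower and 4 higher, against 22.1% and 11.0% of all genes. Among them were the DNA sensor Cgas at -0.59 and the adaptor Mavs at 0.44.

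Of 40 further interferon-induced genes that were tested, 0 were called in a comparison with vehicle. For LCN2 from day 0, 28 lay below 0 with a median of -0.11, against 54.8% of all genes. At an unadjusted p under 0.05, 2 lay lower, Tor3a (-0.29) and Epsti1 (-0.32), against 0.996% of all genes. For LCN2 from day 7, 31 lay below 0 with a median of -0.06, against 49.1% of all genes, and 0 had an unadjusted p under 0.05. On the arrays numbered 1, 10 of the 40 were lower and 3 higher at an adjusted p under 0.05, against 22.1% and 11.0% of all genes, so these counts were near the shares over all genes. The values ran from -1.38 in Ms4a4c to 0.32 in Shisa5.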

How the data were processed

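RNA from 9 samples was measured on expression arrays after amplification with a kit for small inputs. The deposited values are log2 levels, made by the authors with the R package oligo and RMA, per the submitters' processing notes, which give no versions. They were used as deposited: 22203 probe sets, 0 missing values, 0 columns of per-sample values left unused. Of these, 19572 carried 1 gene symbol and all matched RefSeq by Entrez identifier. Where a gene had several probe sets (55 genes), the highest mean was kept. Depth does not apply to arrays, so their number limits the precision.

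The limma package (3.58.1, R 4.3.3) was fitted to all arrays at once, with a mean for each group. P-values were adjusted by Benjamini-Hochberg over all 10042 tested genes. Differences are given as the group named first minus the other. The fit was tested on simulated data with 3-fold changes in 200 genes. It recovered 90.25% of them without the block and 97.4% with it. Smaller changes, such as the LCN2 differences of the members, were not simulated. The members and lists were chosen with earlier results of these data known. The named members were those with the smallest p in each comparison, the highest and lowest means, and Stat2, Irf7 and Irf9; other names were chosen after their values were seen.

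Title numbers were taken to pair the arrays, because deviations from the group means correlated at 0.16 to 0.82 for all 9 same-numbered pairs (-0.75 to 0.69 for the other 18). This did not clearly tell numbers 2 and 3 apart. Vehicle array 3 correlated at 0.47 with LCN2 from day 0 array 3 and at 0.69 with array 2. With LCN2 from day 7 it correlated at 0.65 with array 3 and at 0.20 with array 2. The pairing of numbers 2 and 3 rests on the titles, and the block and within-number results depend on it. Alternatives were the number as a fixed or random block, other filters, scalings, variance models and array weights, and leaving out arrays. Promoter windows were searched in the RefSeq table on both strands.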

Additional observations from a re-analysis of the deposited data

How the results depend on the processing

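In every alternative run, 0 of 10042 genes (or of those left by another filter) passed an adjusted p of 0.05 in an LCN2 comparison. The members named for the smallest p in a comparison kept the direction of their difference in that comparison. Other named members, among them Stat2, Irf7 and Irf9 in the LCN2 comparisons, were not followed in this way. The members' median difference for LCN2 from day 0 against vehicle was -0.20, and -0.30 with array weights, whose estimation stopped before its tolerance. For day 7 against vehicle it was -0.17, and -0.30 with array weights. For both LCN2 groups against vehicle it was -0.19, and -0.31 with array weights. For day 0 against day 7 it was -0.037, and -0.15 without all arrays numbered 1. For the arrays numbered 1 it was -0.30, and -0.21 with quantile normalization. The replicate block on title number left the medians at -0.20, -0.17 and -0.037 for day 0, day 7 and day 0 against day 7. It changed no call, and its counts at an unadjusted p are given with each comparison. Leaving out 1 array at a time, with the block or without it, gave medians of -0.39 (without vehicle array 1) to -0.12 (without LCN2 from day 0 array 1) for day 0, -0.33 (without vehicle array 1) to -0.013 (without LCN2 from day 7 array 1) for day 7, -0.39 (without vehicle array 1) to -0.086 (without vehicle array 2) for both, and -0.19 (without LCN2 from day 7 array 1) to 0.059 (without LCN2 from day 7 array 3) for day 0 against day 7. Genes called by title number ranged from 1777 (without vehicle array 1) to 3612 with 1 array left out, and from 2708 (no brightness filter) to 4514 (array weights) under the other alternatives, against 2224 lower and 1109 higher with all arrays. The cause of these movements was not tested. Signal below the brightness minimum limits what can be said of Isg15, Ifit1, Ifit2, Oas3, Oasl1 and Rtp4.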
